A study of Rattus norvegicus with 10 samples.

Results

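The Slc39a genes encode the ZIP proteins, membrane carriers that bring zinc, and for some of them iron or manganese, into the cytosol. The members described here were selected on their deposited TPM values (a transcript level scaled for gene length and library size): gene symbols made of Slc39a and a number, kept where 5 or more of the 10 livers reached 1 TPM. This gave 12 members of the 14 family genes in a table of 32883 genes. The other two, Slc39a2 on chromosome 15 and Slc39a12 on chromosome 17, were listed at 0 in all 10 livers. Livers came from male rats 5 weeks old, 5 of the SD strain (Sprague-Dawley, the controls) and 5 of the EHBR strain (Eisai hyperbilirubinemic rat), numbered 1 to 5 within each strain. EHBR is known as a line of SD origin that lacks a working Abcc2, the pump that moves conjugated bilirubin into bile. No treatment and no allele is named in the labels, and they do not say whether a sample is 1 animal or how the animals were bred, so p-values speak only of the variation among the samples at hand. Whole liver holds many cell types, and fewer cells of a type cannot be told apart from less RNA per cell.

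Zinc enters the cytosol through ZIP carriers and leaves it, to the outside or into organelles, through Slc30a carriers, while metallothioneins bind it inside the cell. Some ZIP carriers work at the cell surface (Slc39a1, Slc39a3, Slc39a4, Slc39a5, Slc39a6, Slc39a8, Slc39a10 and Slc39a14), and others release zinc from the endoplasmic reticulum, Golgi or vesicles (Slc39a7, Slc39a9, Slc39a11 and Slc39a13). In hepatocytes Slc39a14 is known for uptake of zinc in inflammation and of iron that is not bound to transferrin, and Slc39a8 for recovering manganese from bile.

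The libraries held 13.8 to 19.6 M assigned reads. The weaker members rest on few of them, which limits their precision. The lowest counts in a sample were 29 reads for Slc39a5 and 34 for Slc39a6. Abcc2 was at 60.0 to 271 TPM in SD and at 10.1 to 17.6 TPM in EHBR, in the direction of the labels. Samples numbered 1 to 3 stood apart from samples numbered 4 and 5 in both strains: across kept genes, the deviation of an SD liver from its strain mean correlated with that of an EHBR liver at 0.05 to 0.40 where their numbers fell in the same part, and at -0.37 to -0.09 where they did not. What the numbers stand for is not given in the labels, so results are also given within numbers 1 to 3 and within numbers 4 and 5. This division was first seen in earlier results of these same data, so p-values that rest on it are not independent of the data. A kept gene is 1 of the 11083 genes that passed the same TPM rule as the members. A difference is EHBR minus SD in log2(TPM + 1), which understates the change of weak genes. It was called where limma's adjusted p, over all kept genes, was under 0.05. The median difference of all kept genes was 0.15, so a member near 0 lay slightly under the typical gene.

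Zinc-responsive genes such as the metallothioneins carry copies of a short promoter element bound by Mtf1, the zinc-sensing transcription factor. Its core, searched as TGCACNC or TGCGCNC on either strand with overlapping matches counted, occurred in the promoters of 4 of 10 members with a RefSeq promoter in build GRCr8 (250 bases before to 50 bases after the start). Slc39a4 and Slc39a14 were not searched. The matched promoters were 40% of the members' promoters that were searched, beside 24.2% of 33469 rat promoters. The median GC content was 62.0% in the members and 51.7% in all promoters. Slc39a13 held 2 matches, while among the genes that answer to zinc Mt1 (at its RefSeq locus) held 6, Mt2A 4 and Slc30a1 2. The other matched promoters are shown because their genes differ in how they compare between strains: Slc39a11 was called higher in EHBR, Slc39a1 lay lower in each EHBR liver and Slc39a7 did not separate. Capitals mark the matches, which begin at position 164 for Slc39a1, at 157 and 158 for Slc39a11, and at 152, 153, 160 and 220 for Slc39a7, counted from 1 at the 5′ end. A match is a description of these letters only.
Slc39a1, chr2:178000869-178001168, plus strand: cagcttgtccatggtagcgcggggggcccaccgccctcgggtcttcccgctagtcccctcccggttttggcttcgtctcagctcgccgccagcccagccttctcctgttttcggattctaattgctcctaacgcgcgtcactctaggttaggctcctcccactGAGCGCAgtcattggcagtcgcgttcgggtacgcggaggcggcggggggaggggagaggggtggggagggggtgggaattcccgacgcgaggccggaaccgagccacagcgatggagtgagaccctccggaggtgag
Slc39a11, chr10:99110407-99110706, minus strand: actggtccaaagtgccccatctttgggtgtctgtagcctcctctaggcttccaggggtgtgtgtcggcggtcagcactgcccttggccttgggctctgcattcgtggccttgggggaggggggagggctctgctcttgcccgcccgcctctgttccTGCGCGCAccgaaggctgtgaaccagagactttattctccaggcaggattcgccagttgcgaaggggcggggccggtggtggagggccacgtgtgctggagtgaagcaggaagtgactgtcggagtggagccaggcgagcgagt
Slc39a7, chr20:4824809-4825108, plus strand: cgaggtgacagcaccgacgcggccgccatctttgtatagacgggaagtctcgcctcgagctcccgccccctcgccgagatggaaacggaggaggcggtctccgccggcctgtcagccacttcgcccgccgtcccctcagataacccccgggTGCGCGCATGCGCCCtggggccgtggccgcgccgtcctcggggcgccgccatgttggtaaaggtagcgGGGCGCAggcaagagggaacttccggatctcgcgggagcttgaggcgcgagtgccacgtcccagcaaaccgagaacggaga

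Most of the family's RNA came from 5 genes. Slc39a7, Slc39a4, Slc39a1, Slc39a14 and Slc39a8 held 83.1 to 87.1% of the members' summed TPM in each liver. The sum was 281 ± 34.6 TPM (SD, n = 5) in SD livers and 340 ± 24.6 TPM (SD, n = 5) in EHBR livers. The strains overlapped, since the highest SD liver was at 309 TPM and the lowest EHBR liver at 300 TPM. Within the sum, the mean of Slc39a4 alone was 39.7 TPM in SD and 92.9 TPM in EHBR. In SD livers Slc39a7 and Slc39a1 stood at the top and their ranges overlapped. They were followed by Slc39a14, Slc39a4 and Slc39a8, then by Slc39a9, Slc39a3, Slc39a5, Slc39a11 and Slc39a13, and last by Slc39a6 and Slc39a10. Neighbours within each of these sets overlapped in range. In EHBR livers Slc39a4 came first and its range lay just above that of Slc39a7, which overlapped those of Slc39a14 and Slc39a1.

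**Figure D1:**
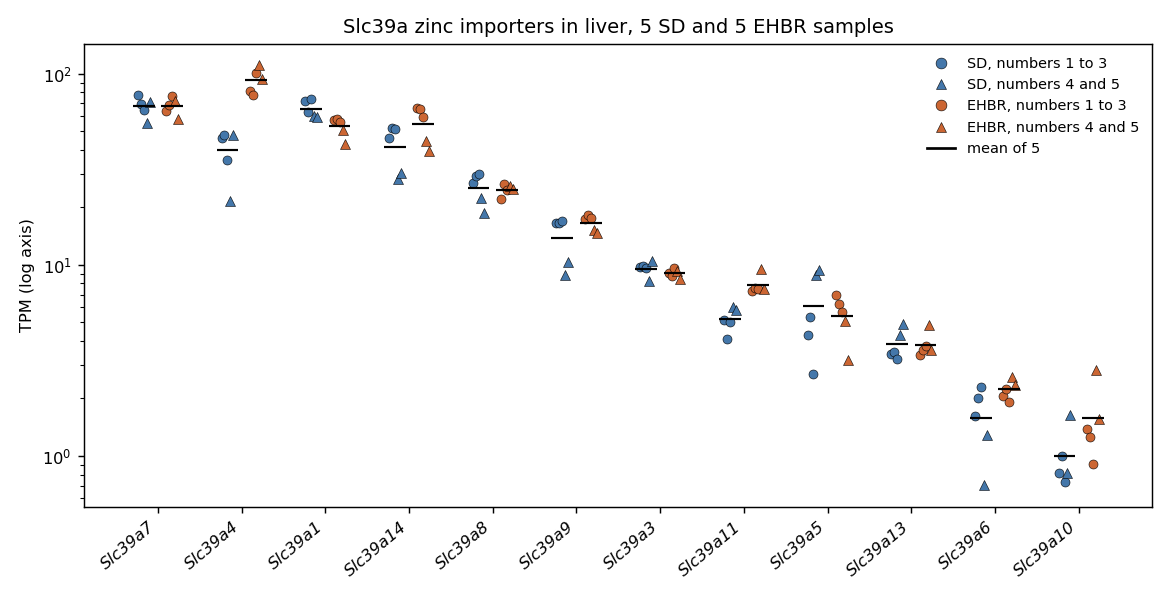
TPM of the 12 members on a log axis, 1 point per liver (circles for numbers 1 to 3, triangles for numbers 4 and 5), with SD in blue and EHBR in orange side by side and a line at each strain's mean of 5. Slc39a4 (21.6 to 48.0 TPM in SD against 77.5 to 111 TPM in EHBR) and Slc39a11 sit higher in EHBR without overlap, Slc39a1 sits lower without overlap, and the other 9 members overlap.

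Among the cell-surface carriers, Slc39a4 differed most. This gene encodes the importer that takes zinc from food in the small intestine, and its loss causes the inherited zinc deficiency acrodermatitis enteropathica. Slc39a4 (rn6 chromosome 7, 117675720 to 117680004, minus strand) was at 46.1, 47.5, 35.2, 21.6 and 48.0 TPM in SD livers 1 to 5. The EHBR livers were at 80.9, 77.5, 101, 111 and 93.8 TPM. Every EHBR liver was above every SD liver, and SD liver 4 was the lowest of all. The means were 39.7 ± 11.4 TPM (SD, n = 5) in SD and 92.9 ± 13.96 TPM (SD, n = 5) in EHBR, a ratio of 2.34. The log2 difference was 1.25 (SE 0.21, 95% interval 0.80 to 1.70, adjusted p = 0.00471, limma). It was 0.996 within numbers 1 to 3 (adjusted p = 0.0105) and 1.63 within numbers 4 and 5 (adjusted p = 0.0567). These values rest on 686 to 2906 reads a liver.

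The make-up of the family's RNA differed as well. Slc39a4 was 9.62 to 17.7% of the members' summed TPM in SD livers and 22.5 to 31.4% in EHBR livers. Its rank among the 12 members was 3 to 5 in SD livers and 1 in all 5 EHBR livers. In SD livers the top member was Slc39a7 in 3 and Slc39a1 in 2. The share of Slc39a1 was 20.7 to 26.6% in SD and 14.3 to 17.02% in EHBR. Shares of a sum are not independent, since a larger Slc39a4 lowers the share of each other member.

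**Figure D2:**
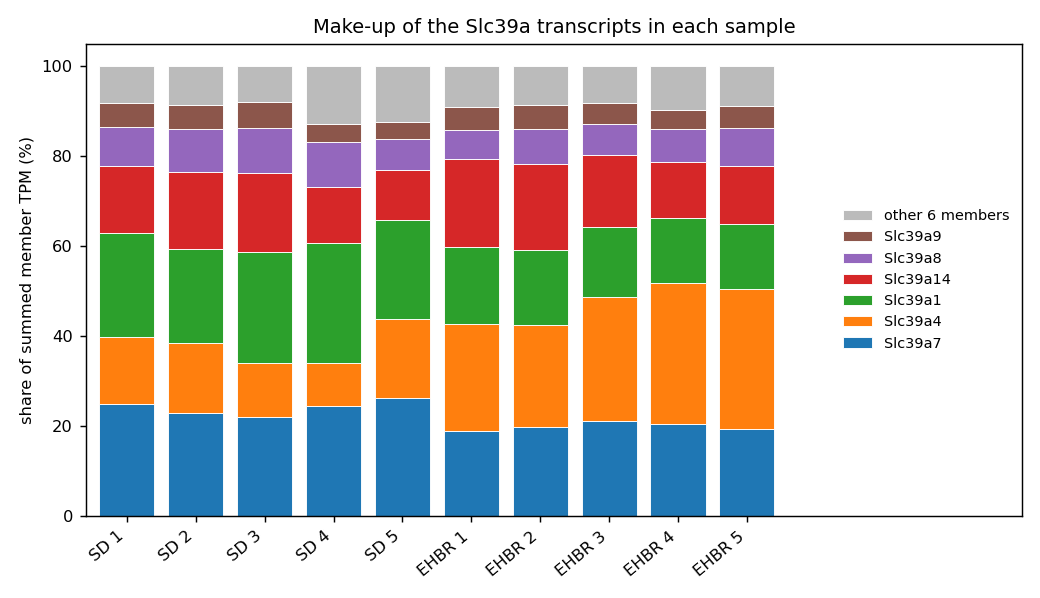
Share of the members' summed TPM (percent) held by each of the 6 most abundant members and by the other 6 together, as stacked bars from 0, 1 bar per liver. Slc39a4 takes 22.5 to 31.4% in the EHBR bars and 9.62 to 17.7% in the SD bars.

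Slc39a1, a widely expressed zinc importer of the plasma membrane, lay in the opposite direction. Slc39a1 (chromosome 2, 189609800 to 189615366, plus strand) was at 71.7, 63.1, 73.4, 59.8 and 59.6 TPM in SD and at 57.5, 58.0, 56.3, 50.8 and 42.8 TPM in EHBR. No EHBR liver reached the lowest SD liver, but the gap between 59.6 and 58.0 TPM was small. The means were 65.5 ± 6.61 and 53.1 ± 6.40 TPM (SD, n = 5 each). The difference of -0.30 (SE 0.11, 95% interval -0.54 to -0.06) was not called, with an adjusted p of 0.146 (limma). It was -0.27 within numbers 1 to 3 and -0.35 within numbers 4 and 5. Slc39a1 was called lower when each liver was centred on its median gene (difference -0.47, adjusted p = 0.0151), with FPKM (-0.39, adjusted p = 0.0305) and under 5 of the other 14 settings that kept all 10 livers or a part by number, among them the term for the numbered parts at the same difference (adjusted p = 0.0180).

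Slc39a14, the hepatic importer of zinc, iron and manganese that interleukin 6 induces, was lower in livers 4 and 5 of each strain. Its strain difference was not called in the main test. Slc39a14 (chromosome 15, 51982982 to 52029816, minus strand) was at 46.2, 52.0, 51.2, 28.1 and 30.4 TPM in SD and at 66.0, 65.8, 59.2, 44.4 and 39.3 TPM in EHBR. Livers 4 and 5 were the lowest of their strain in both strains, so the strains overlapped when pooled. Within each part every EHBR liver was above every SD liver. The pooled difference was 0.41 (SE 0.21, 95% interval -0.05 to 0.87, adjusted p = 0.293, limma). It was 0.35 and 0.50 in the parts (adjusted p = 0.0578 and 0.0829, limma). With a term for the numbered parts in the fit, a division taken from these same data, the same difference had an adjusted p of 0.00508 (limma). That fit called 16.9% of all kept genes.

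Slc39a8, a close relative of Slc39a14 that carries manganese and zinc, had differences of opposite sign in the numbered parts, but neither was called. It (chromosome 2, 241029693 to 241092582, plus strand) ranged from 18.7 to 29.8 TPM in SD and from 22.1 to 26.5 TPM in EHBR, with a pooled difference of -0.01 (SE 0.13, adjusted p = 0.956, limma). The difference was -0.22 within numbers 1 to 3 and 0.30 within numbers 4 and 5 (adjusted p = 0.232 and 0.227, limma). The strains did not overlap in either part, but with so few livers a part this is weak evidence. The share of all kept genes without overlap within a part was not counted. The difference between the parts was 0.52, with an adjusted p of 0.144 (limma) for the interaction of strain and part.

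Slc39a5 is known as an importer of the basolateral membrane in intestine and pancreas. Slc39a5 (chromosome 7, 2813875 to 2819299, minus strand) was at 4.29, 5.36, 2.68, 8.90 and 9.41 TPM in SD and at 6.94, 6.22, 5.67, 5.07 and 3.17 TPM in EHBR. EHBR livers were higher than SD livers in numbers 1 to 3 (0.54) and lower in numbers 4 and 5 (-1.01), without overlap in either part. Neither of these differences was called (adjusted p = 0.179 and 0.0588, limma). The pooled difference was -0.08 (adjusted p = 0.889, limma). The interaction of -1.55 (SE 0.33) had the smallest adjusted p of the 12 members, 0.0832 (limma), and was not called. The deposited tables disagree on this gene. Its FPKM values (reads per length and depth) were 1.25, 2.05, 0.66, 5.05 and 5.31 in SD, and its TPM to FPKM ratio, relative to each sample's median gene, varied by 1.06 on the log2 scale between livers, while no other member varied by more than 0.15. Its reads, 29 to 294 a liver, were recovered from the deposited upper-quartile FPKM. They therefore follow the FPKM by construction and cannot tell which values are right. Slc39a5 also overlaps Ankrd52 on the opposite strand by 13 bases, and the sources used here do not say if reads were counted by strand.

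The remaining surface carriers did not pass the test. Slc39a3, a plasma membrane zinc importer (chromosome 7, 11545024 to 11553370, plus strand), ranged from 8.27 to 10.5 TPM in SD and from 8.47 to 9.62 TPM in EHBR. Its difference of -0.07 had a 95% interval of -0.29 to 0.16 and an adjusted p of 0.714 (limma). Slc39a6 and Slc39a10, which are known to form a complex with each other at the cell surface, were the weakest members. Slc39a6 (chromosome 18, 16522982 to 16543992, minus strand) ranged from 0.701 to 2.30 TPM in SD and from 1.91 to 2.59 TPM in EHBR, with a difference of 0.36 (SE 0.18, adjusted p = 0.279, limma), 0.05 within numbers 1 to 3 and 0.82 within numbers 4 and 5. Slc39a10 (chromosome 9, 60021534 to 60070552, plus strand) was at 0.815, 1.004, 0.730, 0.817 and 1.63 TPM in SD and at 1.39, 1.26, 0.906, 2.83 and 1.56 TPM in EHBR. It reached 1 TPM in 2 SD and 4 EHBR livers and so lies just inside the selection threshold, mostly through its EHBR values. The difference was 0.35 (SE 0.19, adjusted p = 0.329, limma), and 0.20 without EHBR liver 4. AABR07067736.1, on the opposite strand, overlaps its end by 181 bases, and the effect of that overlap on the count was not tested.

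Of the carriers of internal membranes, Slc39a11 was called. Slc39a11 belongs to a branch of its own in the family and has been placed in the Golgi and nucleus. Slc39a11 (chromosome 10, 101754830 to 102084035, minus strand) was at 5.15, 4.08, 5.04, 6.002 and 5.82 TPM in SD and at 7.32, 7.58, 7.497, 9.53 and 7.49 TPM in EHBR. All EHBR livers were above all SD livers, and EHBR liver 4 stood above the other 4 EHBR livers. The means were 5.22 ± 0.757 and 7.88 ± 0.927 TPM (SD, n = 5 each), a ratio of 1.51, and the difference was 0.52 (SE 0.13, 95% interval 0.24 to 0.80, adjusted p = 0.0399, limma). It was 0.56 within numbers 1 to 3 and 0.45 within numbers 4 and 5. The call lay close to the threshold: it was lost without SD liver 1, 2 or 3 and without any EHBR liver in turn (adjusted p 0.0644 to 0.0974, limma). It was also lost with FPKM (difference 0.40, adjusted p = 0.112) and with median centring (0.35, adjusted p = 0.331).

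Slc39a7 releases zinc from the endoplasmic reticulum into the cytosol and was the most abundant member over all livers. Slc39a7 (chromosome 20, 3819414 to 3822778, minus strand) was at 77.2, 69.7, 65.0, 55.1 and 70.9 TPM in SD and at 63.7, 68.4, 77.0, 72.3 and 58.0 TPM in EHBR. The strains overlapped over almost their whole range, with means of 67.6 ± 8.23 and 67.9 ± 7.38 TPM (SD, n = 5 each). The difference was 0.01 (SE 0.11, adjusted p = 0.973, limma), and its 95% interval of -0.24 to 0.25 bounds what these samples could hide. Its sign flipped with the scaling, to -0.16 with median centring and -0.09 with FPKM.

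Slc39a9, a carrier of the Golgi (chromosome 6, 104291071 to 104329872, plus strand), was at 16.6, 16.6, 16.98, 8.86 and 10.4 TPM in SD and at 17.4, 18.3, 17.5, 15.3 and 14.7 TPM in EHBR. SD livers 4 and 5 lay far below the others. The difference was 0.08 within numbers 1 to 3 and 0.59 within numbers 4 and 5, and 0.29 pooled (SE 0.18, adjusted p = 0.388, limma). Slc39a13, a Golgi and vesicle carrier whose loss impairs connective tissue (chromosome 3, 79884524 to 79892429, minus strand), ranged from 3.22 to 4.89 TPM in SD and from 3.39 to 4.82 TPM in EHBR. Its difference was -0.01 (SE 0.14, adjusted p = 0.981, limma), with 0.07 and -0.12 in the parts.

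Across the members, 2 were called higher in EHBR (Slc39a4 and Slc39a11), none lower, and 10 were not called. The called share of 16.7% stands beside 5.45% of all kept genes, of which 3.82% were higher and 1.63% lower. Strains did not overlap for 3 members (25%), beside 8.47% of kept genes. The members' median difference was 0.15, equal to that of all kept genes to this precision. Relative to the median gene of each liver, 2 members were called, Slc39a4 higher and Slc39a1 lower, beside 4.14% of kept genes. With a term for the numbered parts, 4 members were called, Slc39a4, Slc39a11 and Slc39a14 higher and Slc39a1 lower, beside 16.9% of kept genes. The interaction of strain and part was called for 0 members by limma, and for 0.271% of kept genes. At an unadjusted p under 0.05 it took in 4 members (Slc39a5, Slc39a6, Slc39a8 and Slc39a9), beside 20.3% of kept genes.

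**Figure D3:**
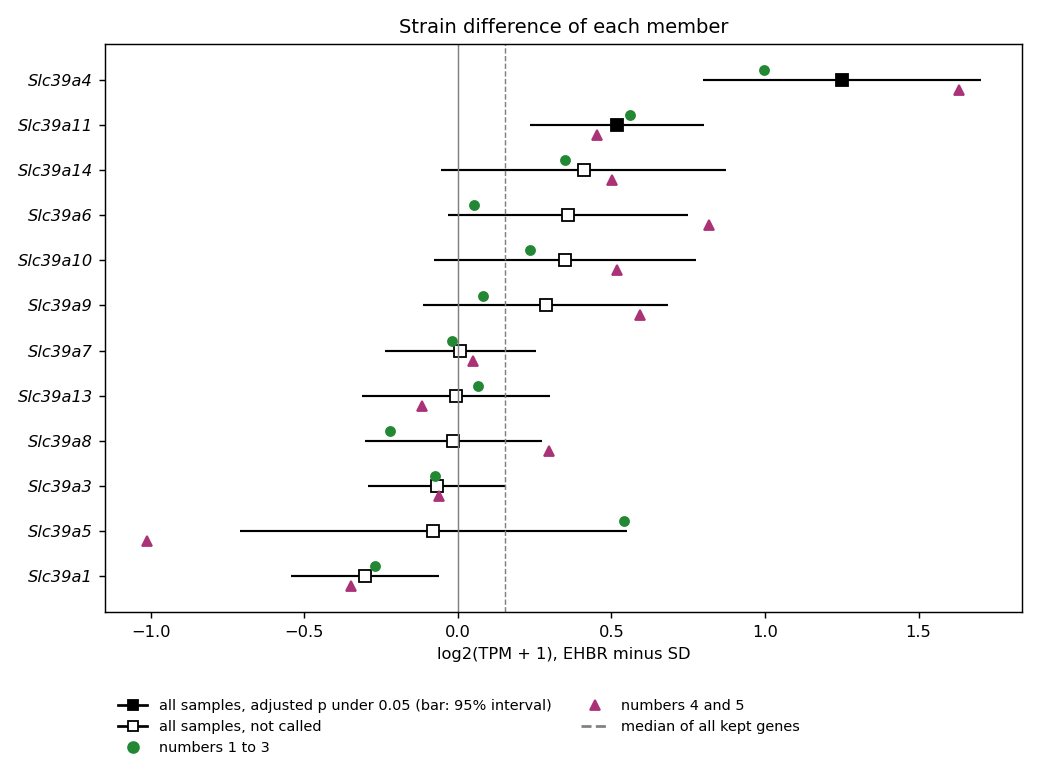
Difference between strains in log2(TPM + 1), EHBR minus SD, for each member: squares with 95% intervals for all 10 livers (filled where called), circles for numbers 1 to 3, triangles for numbers 4 and 5, and a dashed line at the median kept gene (0.15). The parts lie close together for Slc39a1, Slc39a3, Slc39a7 and Slc39a11 and far apart on opposite sides of 0 for Slc39a5 and Slc39a8.

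The call of Slc39a4 was made under 24 of 26 alternative settings, among them all 10 that left out a liver. The exceptions were the exact rank-sum test and numbers 4 and 5 alone. The rank-sum test gave Slc39a4 an adjusted p of 0.0937, but that test called 0 of all kept genes. Slc39a11 was called under 9 of the 26, Slc39a1 under 7 and Slc39a14 under 2, and the other 8 members under none.

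**Figure D4:**
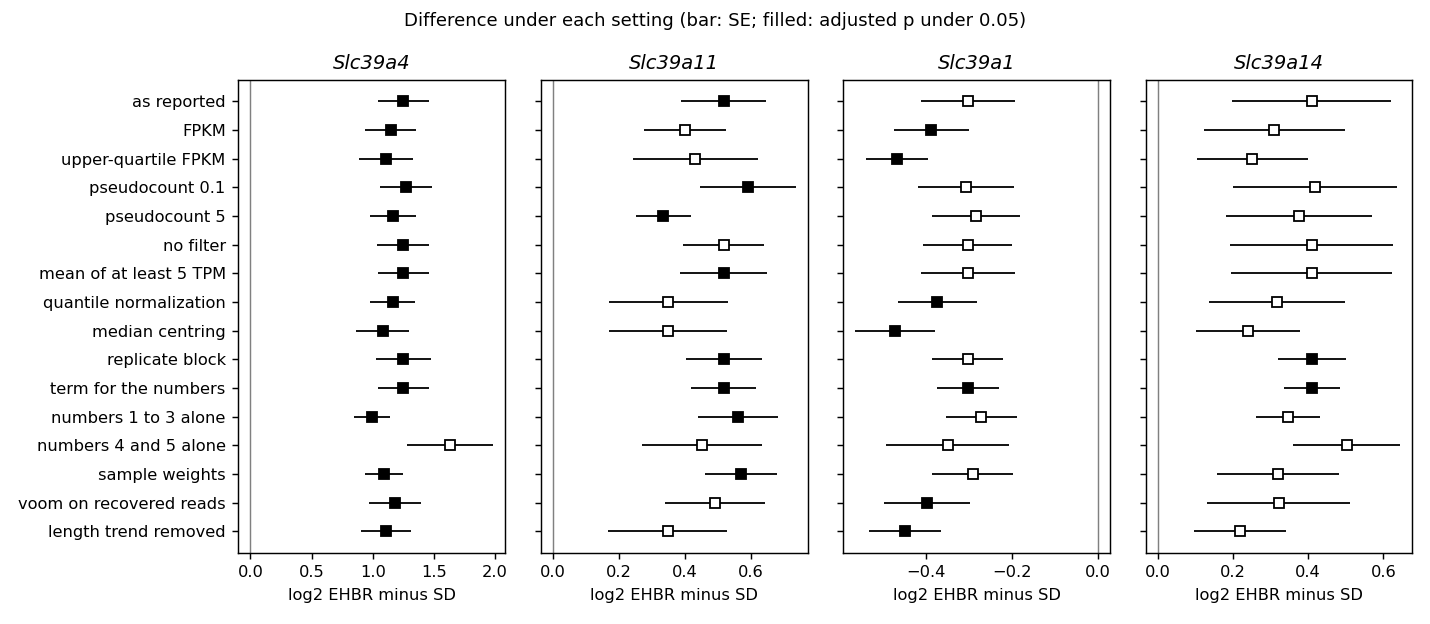
Difference between strains (log2, EHBR minus SD) of Slc39a4, Slc39a11, Slc39a1 and Slc39a14, a panel each, as reported and under the alternative settings other than leaving out a liver and the rank-sum test. Squares are filled where the adjusted p was under 0.05 and bars are 1 SE. Slc39a4 stays between 0.996 and 1.63, while Slc39a11 and Slc39a1 each have filled and open squares.

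The genes that work beside the ZIP carriers were taken from 7 lists with 85 distinct kept genes, of which 8 were called. The counts for these lists and for the cell type markers stand beside 5.45% of all kept genes called. Of the 9 kept zinc exporters (Slc30a genes and Tmem163), 1 was lower and 0 higher, with a median difference of 0.24. The lower gene was Tmem163, a zinc efflux protein, at 2.80, 4.26, 3.58, 2.64 and 2.54 TPM in SD and at 1.37, 0.580, 1.58, 0.976 and 1.18 TPM in EHBR. The strains did not overlap, and the difference was -0.97 (SE 0.17, adjusted p = 0.00673, limma). Slc30a10, a manganese exporter named after its values were seen, was at 13.3 to 23.2 TPM in SD and at 23.5 to 30.2 TPM in EHBR, without overlap, and its difference of 0.44 was not called (adjusted p = 0.131, limma).

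The metallothioneins, which bind zinc in the cytosol, varied widely within each strain. The gene named Mt1 in the tables lies on rn6 chromosome 17 (78793336 to 78793724, plus strand), while RefSeq places Mt1 on chromosome 19 of GRCr8, so the loci differ and its level is uncertain, as for any gene with near-identical copies. It was at 215, 413, 1253, 281 and 7.80 TPM in SD and at 440, 214, 187, 6.33 and 23.9 TPM in EHBR, with a difference of -1.28 (SE 1.36, adjusted p = 0.597, limma). Mt2A was at 314, 585, 2423, 306 and 10.9 TPM in SD and at 877, 336, 357, 26.0 and 29.9 TPM in EHBR, with a difference of -0.84 (SE 1.35, adjusted p = 0.737, limma). That difference was -0.058 without SD liver 3 and -1.98 without SD liver 5. Both were low in SD liver 5 and in EHBR livers 4 and 5. These 2 were the kept genes of their list, and Mtf1 was at no more than 0.308 TPM in any liver.

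Among 19 kept genes of iron uptake, storage and hepcidin control, 1 was higher and 1 lower, with a median of 0.19. Hamp encodes hepcidin, the hormone that limits iron export. It was at 2894, 3359, 3718, 1250 and 868 TPM in SD and at 240, 201, 466, 0.978 and 20.2 TPM in EHBR. Every EHBR liver was below every SD liver, and liver 4 of EHBR was almost without it. The difference was -5.06 (SE 1.26, adjusted p = 0.0400, limma), -3.54 in numbers 1 to 3 and -7.33 in numbers 4 and 5, and the call was lost without SD liver 1, 2, 3, 4 or 5 or without EHBR liver 2 or 5 (adjusted p 0.0516 to 0.0865). Tmprss6, the protease that restrains hepcidin production, was at 207 ± 30.9 TPM in SD and 285 ± 32.7 TPM in EHBR (SD, n = 5 each), a difference of 0.46 (adjusted p = 0.0468, limma). It was called under 10 of the 26 alternatives. It was not called with median centring (0.29, adjusted p = 0.1104), nor without SD liver 1, 2, 4 or 5 or EHBR liver 1, 2, 3 or 5 (adjusted p 0.0507 to 0.133).

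In the other lists few genes were called. Of 18 kept carriers of other divalent metals and copper, 1 was lower and 0 higher (median 0.14). The lower one, Nipal2, of a family of magnesium carriers, was at 7.59 ± 2.12 TPM in SD and 4.24 ± 0.747 TPM in EHBR (SD, n = 5 each; difference -0.69, adjusted p = 0.0421, limma). It was called under 13 of the 26 alternatives, and not without SD liver 1, 3, 4 or 5 or EHBR liver 1, 3, 4 or 5 (adjusted p 0.0574 to 0.0949). Of 14 kept genes of the interleukin 6 and acute phase list, 1 was higher (median 0.16): Lcn2, a protein that binds bacterial iron carriers, at 0.151 ± 0.162 TPM in SD and 8.28 ± 2.63 TPM in EHBR (SD, n = 5 each; difference 2.97, adjusted p = 1.03e-05, limma). Lcn2 stayed under 1 TPM in every SD liver, so it passed the selection threshold only through the EHBR livers, where it was high. None of 10 kept genes of the endoplasmic reticulum stress list was called (median 0.16). Its most abundant gene, the chaperone Hspa5, was at 475 ± 55.5 TPM in SD and 405 ± 74.5 TPM in EHBR (SD, n = 5 each; adjusted p = 0.307, limma).

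Of 13 kept genes in the list of zinc-dependent liver enzymes, 3 were higher and 0 lower, with a median of 0.31. The 13 include Ldha, which is not a zinc enzyme. The symbols Adh1, Adh4, Car3, Car5a, Car14 and Pcx of this list were not matched, so the count leaves those enzymes out. Bhmt2, a methyltransferase that makes methionine, was at 289 ± 21.0 TPM in SD and 421 ± 26.7 TPM in EHBR (SD, n = 5 each; difference 0.54, adjusted p = 0.00316, limma). Car2, a carbonic anhydrase, was at 15.0 ± 3.23 TPM and 26.2 ± 3.16 TPM (SD, n = 5 each; difference 0.78, adjusted p = 0.0140, limma). Adh5, which oxidizes formaldehyde bound to glutathione, was at 71.4 ± 17.9 TPM and 115 ± 13.3 TPM (SD, n = 5 each; difference 0.70, adjusted p = 0.0310, limma). With median centring none of these 3 was called, with adjusted p-values of 0.201, 0.123 and 0.135. Bhmt2 and Car2 were called under 21 of the 26 alternatives each, and Adh5 under 12. The call of Adh5 was lost without SD liver 5 and without EHBR liver 1, 2 or 3 (adjusted p 0.0648 to 0.0850), and with FPKM (adjusted p = 0.0584, limma).

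The kept genes whose log2(TPM + 1) followed Slc39a4 most closely over the 10 livers were Nif3l1 (Pearson's r 0.96), Rnpep, an aminopeptidase (0.96), and Ighm, the immunoglobulin heavy chain of IgM (0.96). Ighm was at 2.58 ± 0.929 TPM in SD and 10.6 ± 1.72 TPM in EHBR (SD, n = 5 each). For Slc39a7 they were Gnb2, a G protein subunit (0.92), Vps37c, an endosomal sorting subunit (0.90), and Arpc4, an actin nucleator subunit (0.90). These correlations describe 10 livers that share strain and numbering.

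Markers of the liver's cell types were read beside these results. Of 9 kept hepatocyte markers, 0 were called. Of 8 kept markers of sinusoidal endothelium, 3 were higher in EHBR (Stab1, Stab2 and Kdr). The list's summed level was 69.1 to 90.1 TPM in SD and 98.8 to 131 TPM in EHBR, so it was higher in EHBR, as Slc39a4 and Slc39a11 were. Whether the sum followed these 2 members from liver to liver within a strain was not tested. The part of these cells in the members' differences was not tested. Of the markers of Kupffer cells (11 kept), stellate cells (8), cholangiocytes (3) and lymphocytes (3), 0 were called, and of 6 erythroid markers 1 was called higher (Slc4a1). The median difference of the erythroid list was 0.70, and its summed level was 982 to 2048 TPM in SD and 1326 to 3314 TPM in EHBR. Within numbers 1 to 3 the hemoglobin genes Hba-a1 and Hba-a2 differed by 1.27 and 1.52 (adjusted p = 0.00349 and 0.00235, limma), and within numbers 4 and 5 by -0.20 and -0.02. Their part in the members' differences was not tested. For the organs in which Slc39a4 and Slc39a5 are best known, the intestinal markers Vil1, Cdx2 and Lct were at no more than 0.282, 0.0492 and 0.0599 TPM in any liver. Other genes of the same list were higher: Apoa4, an apolipoprotein, at 354 to 1362 TPM in SD and 605 to 1046 TPM in EHBR, Fabp2 at 9.22 to 51.3 TPM and 16.5 to 32.0 TPM, and Cdh17 at 6.63 to 23.7 TPM in SD livers 1 to 3 and at no more than 0.462 TPM in the other 7 livers. None of the 2 kept ones (Apoa4 and Fabp2) was called over all 10 livers. Within numbers 1 to 3 Fabp2 was called higher in EHBR (0.84, adjusted p = 0.0375, limma). Within numbers 4 and 5 it differed by -0.78 and was not called (adjusted p = 0.125, limma). Apoa4 was called in neither part. The pancreatic genes Prss1, Prss2, Pnlip, Ins1 and Ins2 were listed at 0 in all 10 livers, Cela1 was lower in EHBR (19.7 to 30.7 TPM, against 39.8 to 65.6 TPM in SD) and Cpb1 higher (2.43 to 4.16 TPM, against 0.283 to 0.811 TPM). Cpb1 stayed under 1 TPM in every SD liver, so it was kept only through its EHBR values.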

How the data were processed

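Liver RNA was extracted with TRIzol and made into poly(A)-selected, directional libraries, as the labels' protocols state. Build rn6 and the tools featureCounts 1.6.3, HISAT2 2.1.0, FastQC 0.11.7 and Trimmomatic 0.38 come from the submitters' processing notes. The authors deposited 3 tables of the same genes, in TPM, FPKM and upper-quartile FPKM. The TPM are the main values here. Coordinates are those of the deposited tables, and promoters come from RefSeq (GRCr8).

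Values of log2(TPM + 1) were tested with limma 3.58.1 (R 4.3.3), using its trend option and strain as the only factor, two-sided, with Benjamini-Hochberg adjustment over 11083 genes and a threshold of 0.05. From the upper-quartile FPKM, whole reads could be recovered for 99.6% of kept genes, with a length accepted only where all values came out whole within 0.0002 reads. They give the depth and an added voom alternative. Symbols in lists were matched as spelled in the tables. Named were all members, up to 4 called genes of each list (or its most abundant one), 3 correlated genes for Slc39a4 and Slc39a7, and Abcc2. The members, the lists and the division into numbered parts were chosen with earlier results of these data known. Alternatives were FPKM, upper-quartile FPKM, pseudocounts of 0.1 and 5, quantile normalization, median centring, no filter, a filter at a mean of 5 TPM, the replicate number as a block, an exact rank-sum test, a term for or restriction to the numbered parts, sample weights, each sample left out, and, added after the data were seen, voom and removal of a lowess trend on gene length. Tables and figures were made in Python 3.11.15 (matplotlib 3.10.9, scipy 1.17.1, numpy 2.4.6, pandas 2.3.3).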

Additional observations from a re-analysis of the deposited data

Results flagged for a closer look

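In 82 groups of 5 livers (41 genes in each strain: the members, the list genes chosen by rule, the correlated genes, Abcc2 and 12 other kept genes whose values are given), 5 held a liver far from the other 4, judged by the gap to its neighbour as a share of the group's range (above 0.71). Chance alone marks about 1 group in 20. EHBR liver 4 was the high one in 3 of them: Slc39a11 at 9.53 TPM, Slc39a13 at 4.82 TPM and Hspa5 at 536 TPM. Without that liver the adjusted p of Slc39a11 was 0.0974 (limma). SD liver 3 was high for Mt2A, at 2423 TPM. SD liver 4 was low for Nif3l1, at 3.23 TPM.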

How the results depend on the processing

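Of the 12 members, 2 were called in the main test, and the count was 0 with the exact rank-sum test and in numbers 4 and 5 alone, 1 with no filter, 4 with a term for the numbered parts, and 1 to 2 with a liver left out. Genes called higher, 423 in the main test, came to 190 with upper-quartile FPKM, 193 with median centring, 639 with the replicate block, 719 with sample weights, 1506 with the term for the parts, and 243 to 439 with a liver left out. Genes called lower, 181 in the main test, came to 112 in numbers 4 and 5 alone, 275 with the length trend removed, 290 with quantile normalization, 292 with sample weights, 372 with the term, and 135 to 179 with a liver left out. Of the other metal genes, 8 were called in the main test, 3 with upper-quartile FPKM, 5 with no filter, median centring or the length trend removed, 13 with the replicate block, 22 with the term, and 4 to 8 with a liver left out. The rank-sum test called 0 genes in each direction, with 1756 at an unadjusted p under 0.05, since its smallest exact p is 0.00794. The cause of the other shifts was not tested.

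The share of calls that were higher was 70.0% in the main test, 58.8% with FPKM, 44.1% with upper-quartile FPKM, 52.0% with quantile normalization, 42.0% with median centring, 50.7% with the length trend removed, 60.4% with voom and 80.2% with the term. The median gene moved from 0.15 to 0.02 with upper-quartile FPKM and the length trend removed, 0.01 with quantile normalization and -0.02 with median centring.

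Reversals occurred in 4 members, none of them called. Slc39a7 was at -0.092 with FPKM, -0.094 with voom, -0.16 with upper-quartile FPKM and median centring, -0.065 with quantile normalization, -0.14 with the length trend removed, -0.020 in numbers 1 to 3 and -0.011 with sample weights, and between -0.063 and 0.062 with a liver left out. Slc39a5 was at 0.037 with FPKM, 0.11 with upper-quartile FPKM, 0.13 with voom, 0.54 in numbers 1 to 3 and 0.27 with sample weights, and between -0.29 and 0.083 with a liver left out. Slc39a13 was at 0.067 in numbers 1 to 3 and 0.055 with sample weights, and between -0.076 and 0.065 with a liver left out. Slc39a8 was at 0.30 in numbers 4 and 5, and between -0.11 and 0.046 with a liver left out. A mean of at least 5 TPM gives no value for Slc39a6, Slc39a10 and Slc39a13. The interaction called 0 members under each pseudocount and with the replicate block.

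The replicate numbers showed no clear pairing of the samples. Deviations of same-numbered samples correlated at 0.13, 0.29, 0.07, 0.25 and 0.27, and 4 of 10 samples correlated best with their own number. Different numbers within a part correlated at up to 0.40, so this check cannot separate pairing from the parts. With the replicate block, 3 members were called, Slc39a4, Slc39a11 and Slc39a14. With 5 livers a strain, the lowest reads in a sample were 29 for Slc39a5, 34 for Slc39a6 and 40 for Slc39a10. The SE of the main difference was largest for Slc39a5 (0.29). Slc39a14 and Slc39a4, with more reads, were at 0.21 each, above Slc39a10 (0.19) and Slc39a6 (0.18).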

Other observations

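Cdh17, an adhesion protein on the list of intestinal markers, was chosen after its values were seen. It was at 23.7, 6.63 and 12.6 TPM in SD livers 1 to 3 and at 0.0809 and 0.0395 TPM in SD livers 4 and 5. In EHBR it was at no more than 0.462 TPM in any liver. Which cells these transcripts came from was not tested. Fabp2, a fatty acid binding protein on the same list, was at 9.22, 12.4 and 10.4 TPM in SD livers 1 to 3 and at 36.2 and 51.3 TPM in SD livers 4 and 5. The 2 genes were thus not high in the same SD livers. In EHBR livers 1 to 5 Fabp2 was at 25.6, 18.1, 16.5, 32.0 and 19.1 TPM.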
